A study of Mus musculus with 4 samples.

Results

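The methylation of 1 kb stretches of the genome was compared between mature B cells of Sca1-BCL6Δ mice and mature B cells of wild-type mice. The 19 autosomes were divided into fixed 1000-bp tiles on the mouse build mm9. In each tile the methylated and total reads were summed over the CpGs that both B cell libraries covered with under 50 reads, and a tile was kept when the sum reached 10 reads in each library. This kept 136620 tiles of the 319508 that held a usable CpG, and of 421973 autosomal tiles with a covered CpG in any of the 4 libraries of the series. Of the tiles left out, 98021 were short of reads in the Sca1-BCL6Δ library only, 5604 in the wild-type library only and 79263 in both. The kept tiles held 771510 CpGs. They were chosen by coverage alone, without their methylation levels.

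The data came from reduced representation bisulfite sequencing (RRBS), which reads CpG methylation at the ends of restriction fragments. Each of the 4 libraries, from B cells and from haematopoietic stem and progenitor cells (HSPCs) of both genotypes, held DNA pooled from 6 to 9 mice, and each condition had 1 library. The B cells were purified from peripheral blood as B220+ and the HSPCs from bone marrow as Sca1+Lin-, and both genotypes had the strain background CBAxC57BL/6J. Sca1-BCL6Δ mice carried a floxed mouse Bcl6-IRES-eGFP transgene in the pLy6 vector, which holds Sca1 (Ly6a) regulatory sequence, together with mb1-Cre (Cd79a tm1(cre)Reth), so that the transgene was to be expressed in early cells and cut out in the B lineage. The deposited methods name 2 independent transgenic lines and do not say which one gave these cells. The wild-type group is not described as carrying Cre, so the transgene and the Cre allele cannot be told apart here. Ages and the disease state of the pooled mice are not given in the sources used here. The label of the cells could not be checked from methylation, because none of the 20 promoters of B cell identity genes looked for was matched.

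BCL6 is a transcriptional repressor that germinal centre B cells need, and its misexpression is a known lesion of B cell lymphoma. Methyl groups on CpG cytosines are copied at cell division by DNMT1, so a methylation state set in a stem cell can in principle be carried into its descendants. In normal mammalian cells most CpGs outside CpG islands are methylated, promoters in CpG islands are mostly free of methylation, and the promoters of many germline genes are methylated in body tissues. The comparison addresses whether B cells that descend from cells made to express Bcl6 differ in methylation from wild-type B cells.

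The sequences of 4 promoters show the kinds of region that the results below refer to: Gpr63 lies in the tile of smallest p among tiles with a placed promoter, Hes7 in one whose pooled and equally weighted differences had opposite signs, Iars2 in the one of smallest p among the promoter tiles with a higher level in Sca1-BCL6Δ, and Ddx4 in a germline gene whose promoter was methylated in every library. They are RefSeq sequences of build GRCm38.p6, 300 bases around the gene start, printed 5′ to 3′ on the gene's strand. Capitals mark the CpGs that both B cell libraries covered. The mm9 spans come from matching the spacing of CpGs and are chr4:24893337-24893636 (+) for Gpr63, chr11:68933705-68934004 (+) for Hes7, chr1:187153231-187153530 (-) for Iars2 and chr13:113442469-113442768 (-) for Ddx4.
Gpr63: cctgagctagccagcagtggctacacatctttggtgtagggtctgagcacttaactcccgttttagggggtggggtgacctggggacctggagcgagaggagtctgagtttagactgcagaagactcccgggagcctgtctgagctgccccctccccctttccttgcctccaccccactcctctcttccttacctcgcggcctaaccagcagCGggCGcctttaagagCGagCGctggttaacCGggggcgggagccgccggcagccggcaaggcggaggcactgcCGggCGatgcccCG
Hes7: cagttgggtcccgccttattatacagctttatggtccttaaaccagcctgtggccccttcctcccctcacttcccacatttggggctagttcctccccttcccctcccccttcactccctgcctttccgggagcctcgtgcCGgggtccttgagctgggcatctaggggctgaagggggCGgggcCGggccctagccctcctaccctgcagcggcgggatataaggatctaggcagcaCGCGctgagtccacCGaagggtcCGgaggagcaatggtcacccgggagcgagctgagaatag
Iars2: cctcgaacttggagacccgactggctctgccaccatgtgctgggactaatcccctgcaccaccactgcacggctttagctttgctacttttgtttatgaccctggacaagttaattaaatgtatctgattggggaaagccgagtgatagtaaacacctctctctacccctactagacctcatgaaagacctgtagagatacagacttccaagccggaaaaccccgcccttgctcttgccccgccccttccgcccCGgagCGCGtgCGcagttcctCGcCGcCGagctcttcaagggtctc
Ddx4: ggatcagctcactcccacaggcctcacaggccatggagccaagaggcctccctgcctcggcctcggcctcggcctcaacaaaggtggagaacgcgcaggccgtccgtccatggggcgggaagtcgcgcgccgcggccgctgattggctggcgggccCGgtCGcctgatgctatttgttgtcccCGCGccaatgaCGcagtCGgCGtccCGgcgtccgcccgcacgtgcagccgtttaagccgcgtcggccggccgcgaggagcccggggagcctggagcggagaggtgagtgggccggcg
Over the capitals alone, the pooled level was 3.95% of 76 reads in Sca1-BCL6Δ B cells against 5% of 120 reads in wild-type B cells for Gpr63, a G protein-coupled receptor. For Hes7, a transcriptional repressor of the segmentation clock, it was 7.79% of 77 reads and 10.8% of 65 reads. For Iars2, the mitochondrial isoleucyl-tRNA synthetase, it was 15.1% of 53 reads and 3.40% of 147 reads, and all 7 CpGs were higher in the Sca1-BCL6Δ library. These are not 7 separate observations. The CpGs from 187153251 to 187153275 each had 1 of 5 methylated Sca1-BCL6Δ reads, so 1 read may be counted at each. The CpG at 187153248 had 2 of 23 against 1 of 39. For Ddx4, the germ cell RNA helicase also known as Vasa, the pooled level was 97.6% of 126 reads and 95.3% of 149 reads.

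Depth differed between the libraries. The Sca1-BCL6Δ B cell library covered 1084930 autosomal CpGs at a mean of 6.50 reads, and the wild-type B cell library 1376629 at a mean of 11.02 reads. A kept tile held a median of 20 summed reads in Sca1-BCL6Δ, 38 in wild-type and 3 shared CpGs. With 1 library for each condition, every test below compares the reads of 2 libraries and not the conditions, and the difference in depth moves with the genotype. After PCR, several reads of a CpG can stem from 1 molecule, so intervals and counting errors cover counting only. Throughout, the reads given for a level over several CpGs are sums over those CpGs. A read that covers several CpGs is counted at each of them, so the counting errors and intervals given for tiles are too small where reads were shared.

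The B cells of both genotypes had nearly the same methylation level. The mean tile level was 73.3% in Sca1-BCL6Δ against 73.5% in wild-type B cells. The mean difference, Sca1-BCL6Δ minus wild-type in percentage points as everywhere below, was -0.16 (SE 0.038 over the 19 autosome means, which are not replicates), and the median was 0. With each CpG weighted equally the mean was -0.024, smaller in size than the counting error of the pooled mean, 0.042 (plus or minus, 95% level). The counting error of the equally weighted mean itself was not computed. Over tiles the levels of the 2 libraries correlated with a Pearson's r of 0.958 and a Spearman's rho of 0.790, given as a description since tiles share their library. In 77.7% of tiles the levels lay within 10 points of each other. The most populated squares of the plot of both levels are at its upper right and lower left corners, where methylated and unmethylated tiles lie on the diagonal.

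**Figure D1:**
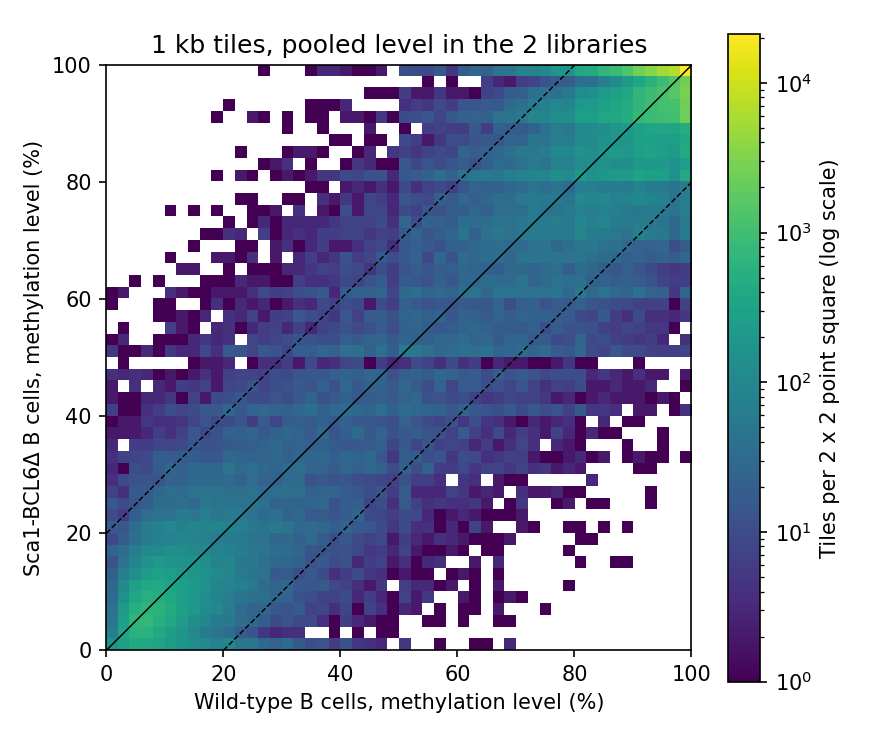
Pooled methylation level of the 136620 tiles in wild-type (horizontal axis, %) and Sca1-BCL6Δ B cells (vertical axis, %), with the number of tiles in each square of 2 by 2 points as colour on a log scale. The solid line marks equal levels and the dashed lines a difference of 20 points, beyond which lay 3931 tiles above and 4681 below. Narrow bands just under 50% hold few tiles.

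A difference of at least 20 points was found in 3931 tiles in the direction of a higher level in Sca1-BCL6Δ (2.88%) and in 4681 of a lower level (3.43%), in all 6.3% of tiles. The spread of the differences followed the depth. Their SD was 9.98 points over all tiles, where counting error alone gives 8. In the 43150 tiles with 10 to 14 reads in the shallower library the SD was 11.9 against a counting error of 10.05. In the 11610 tiles with 100 or more reads in both libraries it was 5.21 against 2.69, and 22 of these tiles were higher and 31 lower by at least 20 points. Level moved with depth. The mean Sca1-BCL6Δ level was 85.6% at 10 to 14 reads and 10.5% at 100 or more. In tiles whose mean of both levels was 20 to 80%, the SD was 20.7 against 16.6 at 10 to 14 reads. At 100 or more it was 11.04 against 4.89, with 13 of 442 tiles higher (2.94%) and 24 lower (5.43%) by at least 20 points. Tiles just outside the minimum, with 8 or 9 reads, had an SD of 13.4, and tiles with 10 or 11 reads one of 12.4.

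**Figure D2:**
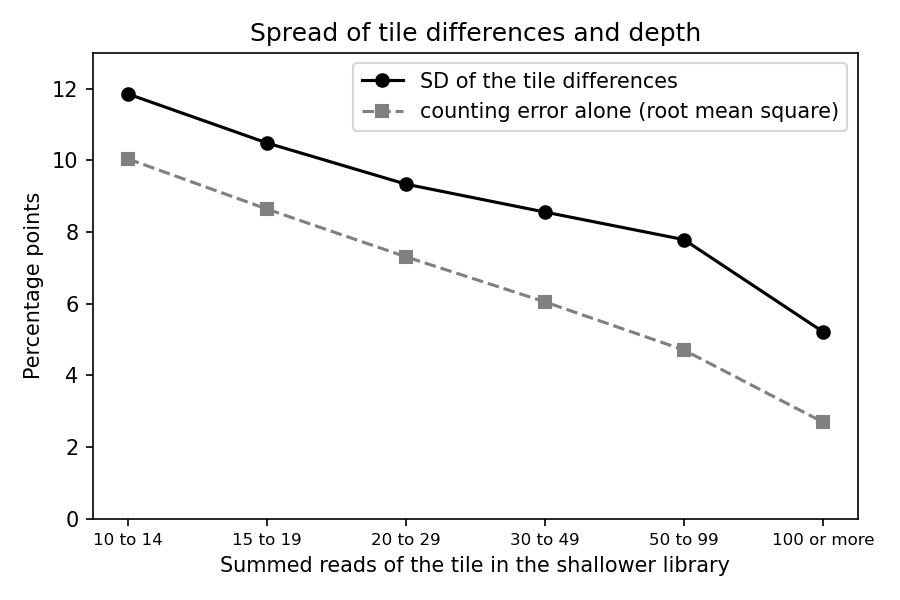
Standard deviation of the tile differences (circles, percentage points) and the root mean square of their counting error (squares) by the number of summed reads in the shallower library. Both fall with depth, from 11.9 and 10.05 at 10 to 14 reads to 5.21 and 2.69 at 100 or more, and the observed spread is above the counting error in all 6 depth ranges. The mean Sca1-BCL6Δ level also falls between these ranges, from 85.6% to 10.5%.

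CpG density, counted as the distinct CpGs covered in any of the 4 libraries, is high in CpG islands and low in most of the genome. The 83687 tiles of 1 to 4 CpGs had a mean level of 85.6% in Sca1-BCL6Δ against 85.5% in wild-type B cells and a mean difference of 0.07 (SE 0.041 over autosomes). This value was -0.0012 when density was counted from CpGs covered in both B cell libraries. The 43669 tiles of 5 to 19 CpGs had levels of 63.3% and 63.8% and a mean difference of -0.49 (SE 0.053). The 9264 tiles of 20 or more CpGs had levels of 9.40% and 10.1% and a mean difference of -0.68 (SE 0.080). In the last 2 classes all 19 autosome means were lower in Sca1-BCL6Δ, against 6 of 19 in tiles of 1 to 4 CpGs. The differences of these 2 classes moved with the weight given to deep CpGs. With every CpG weighted equally it was -0.27 in tiles of 5 to 19 CpGs and -0.17 in the densest, where it was -0.36 after each CpG was thinned to the lower coverage of both libraries. Differences of at least 20 points were found in 34 of the densest tiles, 15 higher (0.162%) and 19 lower (0.205%), and in 3.35% and 3.95% of the tiles of 1 to 4 CpGs.

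By level class, the mean of both B cell libraries placed 23804 tiles under 20%, 21999 at 20 to 80% and 90817 over 80%. Unmethylated tiles had a mean level of 8.85% in Sca1-BCL6Δ against 10.5% in wild-type, a difference of -1.65 (SE 0.073). Intermediate tiles had 52.9% and 54.3%, a difference of -1.45 (SE 0.14). Methylated tiles had 95.1% and 94.6%, a difference of 0.54 (SE 0.023). The sign was the same on all 19 autosomes in each class, lower in the first pair and higher in the last. These classes take in the counting error of both libraries, and more of that of the shallower Sca1-BCL6Δ library, on every autosome, so the shared sign is no sign of stability. Intermediate tiles held 2440 of the 3931 tiles that were at least 20 points higher and 3086 of the 4681 that were lower. These were 11.1% and 14.03% of intermediate tiles, against 0.891% and 2.13% of unmethylated and 1.41% and 1.20% of methylated tiles. Counting error alone was also larger there, 13.5 points against 5.55 in unmethylated and 6.65 in methylated tiles.

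The signs of the level classes depended on which library set the class. The Sca1-BCL6Δ HSPC library is outside the comparison but shares the genotype of 1 side of it. Classes from the wild-type HSPC library are not given here. Classes from the Sca1-BCL6Δ HSPC library gave -1.03 (SE 0.084, 21059 tiles) under 20%, -0.99 (SE 0.12, 19262 tiles) at 20 to 80% and 0.30 (SE 0.031, 52088 tiles) over 80%. The same HSPC classes with coverage thinned to the lower of both B cell libraries gave -0.73, -0.91 and 0.22. Classes from the wild-type B cell library alone gave 0.52, 0.97 and -0.64, with every sign turned. A class set by 1 of the libraries compared takes in that library's own counting error, by construction. The size also fell with depth in unmethylated tiles, from -5.72 (SE 0.31) in 1504 tiles of 10 to 14 reads to -0.65 (SE 0.063) in 10941 tiles of 100 or more. In methylated tiles it went from 0.67 (SE 0.035) in 34329 tiles of 10 to 14 reads to -0.11 (SE 0.25) in 227 tiles of 100 or more. In intermediate tiles it was -1.99 (SE 0.23) in 7317 tiles of 10 to 14 reads, -0.88 (SE 0.26) in 4762 tiles of 20 to 29, and -2.84 (SE 0.65, below 0 on 16 of 19 autosomes) in 442 tiles of 100 or more.

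**Figure D3:**
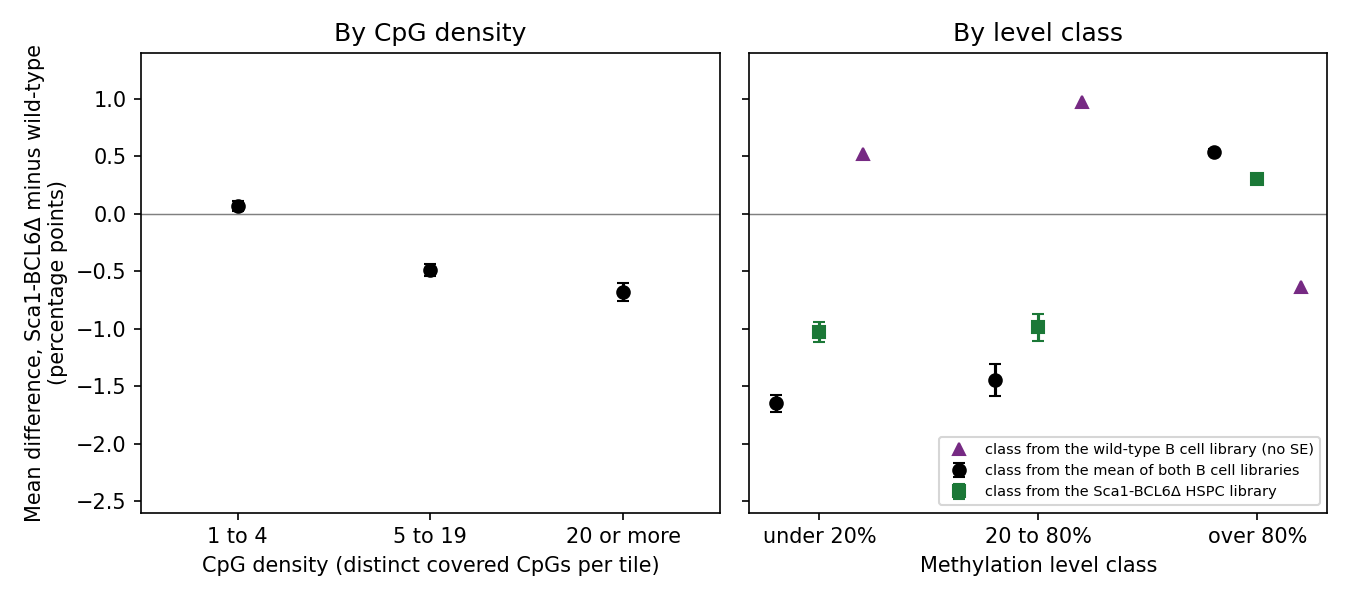
Mean difference in percentage points by CpG density (left) and by level class (right), with the SE over autosome means as bars. The density means run from 0.07 to -0.68, and the level means under 20% and over 80% are -1.65 and 0.54 with classes from both B cell libraries (circles), -1.03 and 0.30 from the HSPC library (squares) and 0.52 and -0.64 from the wild-type B cell library (triangles, no SE).

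Density and level together separated these values further. In tiles under 20% the mean difference was -3.65 (SE 0.24) at 1 to 4 CpGs, -1.88 (SE 0.11) at 5 to 19 and -0.65 (SE 0.065) at 20 or more. These tiles had median sums of 19, 61 and 220 reads in the Sca1-BCL6Δ library, so density moved with depth and the part of each was not tested. In tiles over 80% the values were 0.61 (SE 0.022), 0.36 (SE 0.044) and -0.58 (SE 0.52), the last over 107 tiles only. Dense tiles of intermediate level were rare, 276 in all, and 11 were higher and 11 lower by at least 20 points.

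The autosome means lay within 1 point of each other. The mean difference ran from -0.45 (SE 0.10 over tiles) on chromosome 4 and -0.41 (SE 0.11) on chromosome 11 to 0.14 (SE 0.12) on chromosome 3, and it was below 0 on 14 of the 19. With every CpG weighted equally it was below 0 on 9, and chromosome 1 went from -0.19 to 0.048. With a minimum of 20 reads it was below 0 on all 19. Chromosome 11 had the lowest mean levels, 68.9% and 69.3%. Within level classes the autosomes ran from -2.14 on chromosome 14 to -0.97 on chromosome 18 under 20%, from -2.39 on chromosome 4 to -0.27 on chromosome 19 at 20 to 80%, and from 0.40 on chromosome 4 to 0.73 on chromosome 12 over 80%.

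**Figure D4:**
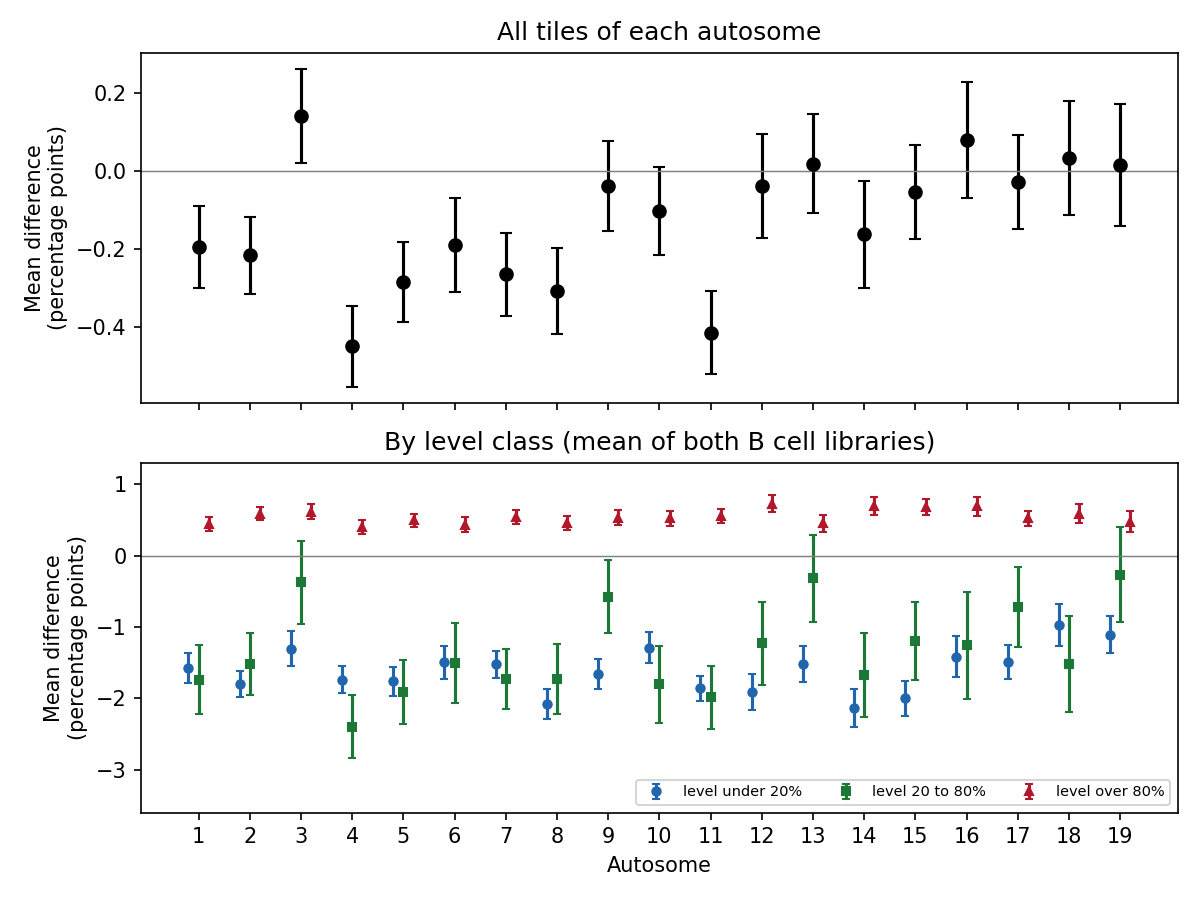
Mean difference per autosome in percentage points over all tiles (top) and by level class (bottom), with the SE over tiles as bars. Over all tiles the means lie between -0.45 and 0.14. All 19 autosomes lie below 0 for tiles under 20% and at 20 to 80%, and above 0 for tiles over 80%, with classes from the mean of both B cell libraries.

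On a finer scale, 253 windows of 10 Mb held at least 50 tiles. Their mean differences ran from -1.83 to 1.55 with an SD of 0.54, and 149 were below 0. The lowest was the start of chromosome 14 up to 10 Mb, with -1.83 (SE 1.0) over 103 tiles. The next was chr15:100000001-110000000, with -1.58 (SE 0.44) over 529 tiles. The highest was chr12:10000001-20000000, with 1.55 (SE 0.54) over 344 tiles. The share of tiles that differed by at least 20 points had a median of 6.13% and ran from 2.42% to 11.97%. The highest share was in chr12:20000001-30000000, with 12 tiles higher and 22 lower of 284.

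The read test called very few tiles. It was Fisher's exact test, two-sided, on CpGs more than 50 bp apart, with Benjamini-Hochberg adjustment over all 136620 tiles, and a call needed an adjusted p under 0.05 and at least 20 points. It called 4 tiles (0.00293%), 2 higher and 2 lower in Sca1-BCL6Δ (0.00146% each). An adjusted p under 0.05 alone was reached by 5 tiles (0.00366%) and an unadjusted p under 0.05 by 3819 (2.8%). Fisher's exact test on the reads of all CpGs, which counts reads that cover neighbouring CpGs more than once, called 230 tiles higher and 253 lower (0.354%). Of these 483 tiles, 356 had an intermediate level (of 21999 such tiles), 99 were under 20% (of 23804) and 28 over 80% (of 90817). No tile was called when the coverage of each CpG was made equal in both libraries, where 1364 had an unadjusted p under 0.05. Each window of 10 Mb held at most 1 called tile, and the highest share was 0.403%, 1 of 248 tiles in chr10:100000001-110000000.

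Of the 4 called tiles, 3 rested on a single tested CpG whose neighbours did not share the difference. In chr10:107881001-107882000, pooled levels were 100% of 16 reads in Sca1-BCL6Δ against 46.2% of 39 reads in wild-type B cells (adjusted p = 0.022, Fisher's exact test). The CpG at 107881057 was methylated in 8 of 8 reads against 0 of 20, which allows up to 15%, and the CpG 5 bp before it in 8 of 8 against 18 of 19. Read by read, 14 of 14 in Sca1-BCL6Δ were fully methylated, and 18 of 20 in wild-type held both states. These shares do not compare the same CpGs. The 14 Sca1-BCL6Δ reads held 27 CpGs, more than the 16 summed above, while the 20 wild-type reads held 39. In HSPCs the CpG at 107881057 had 1 of 4 reads methylated in Sca1-BCL6Δ and 0 of 7 in wild-type.

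In chr19:23016001-23017000, pooled levels were 100% of 21 reads and 58.7% of 63 reads (adjusted p = 0.0385, Fisher's exact test). The CpG at 23016104 was methylated in 7 of 7 Sca1-BCL6Δ reads and in 0 of 21 wild-type reads, while the other CpGs had 7 of 7 against 19 of 21 and 18 of 21. In wild-type HSPCs that CpG was methylated in 0 of 4 reads and the others in 4 of 4, and the Sca1-BCL6Δ HSPC library had no read there. In chr4:3413001-3414000, pooled levels were 75.0% of 28 reads and 98.6% of 74 reads (adjusted p = 0.0415, Fisher's exact test). The CpG at 3413319 was unmethylated in all 7 Sca1-BCL6Δ reads and methylated in 19 of 19 wild-type reads, and its 3 neighbours were methylated in 7 of 7 Sca1-BCL6Δ reads each. Without the single CpG the differences of these 3 tiles were 5.26, 11.9 and 1.82 points. It was methylated in 4 of 12 reads of Sca1-BCL6Δ HSPCs and in 6 of 7 of wild-type HSPCs.

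These 3 CpGs belonged to a group of 5. Of 358981 CpGs of kept tiles with at least 7 reads in both B cell libraries, a minimum chosen after the values were seen, 3 were fully methylated in Sca1-BCL6Δ and unmethylated in wild-type and 2 were the reverse. A covered neighbour within 36 bp was present for 4 of the 5, and in all 4 every such neighbour differed by under 20 points. Bisulfite counts do not tell an unmethylated cytosine from a thymine in the genome, so at these CpGs a sequence difference between the pools of mixed strain background and a methylation difference cannot be told apart, and this was not tested. Differences of at least 50 points were found at 484 such CpGs in the higher and 637 in the lower direction.

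The fourth called tile, chr15:83554001-83555000, held 12 CpGs, and its midpoint lay 1.1 kb from the middle of the matched promoter of Scube1. That gene encodes a secreted and cell surface protein with EGF-like repeats. The level of the tile was 9.85% of 132 reads in Sca1-BCL6Δ against 38.2% of 186 reads in wild-type B cells (adjusted p = 0.0198, Fisher's exact test). The HSPC levels of 23.9% of 92 reads and 25.0% of 116 reads lay between those values. Of the wild-type B cell reads 35 of 102 were fully methylated and 47 unmethylated, and of the Sca1-BCL6Δ reads 3 of 55 and 44. These shares do not compare the same CpGs. The reads held 261 CpGs in wild-type and 232 in Sca1-BCL6Δ, more than the 186 and 132 summed above. They also fell on different parts of the tile, with 25 and 5 reads at 83554326 and 23 and 34 at 83554995. The tile was uneven. Its first CpG, at 83554326, was methylated in 1 of 5 against 20 of 25 reads and the CpG at 83554428 in 0 of 5 against 12 of 18, while the CpG at 83554995 had 1 of 34 against 0 of 23. With each CpG weighted equally the difference was -18.7 points, and with equal coverage -11.2 points, and the call was lost in both cases.

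The tiles of next smallest p that differed by at least 20 points did not pass the test. The 3 with a higher level in Sca1-BCL6Δ come first. In chr17:84336001-84337000 the level was 96.4% of 55 reads against 66.2% of 80 reads (adjusted p = 0.0741, Fisher's exact test), with 84.6% and 69.2% in HSPCs. The CpG at 84336389 had 1 of 1 methylated reads against 2 of 21, without it the levels were 96.3% and 86.4%, and at equal coverage the difference of 30.1 points was 14.9. In the Iars2 tile chr1:187153001-187154000 it was 34.9% of 212 against 10.96% of 356 reads (adjusted p = 0.0771, Fisher's exact test), with 11.4% and 9.57% in HSPCs. One CpG there, at 187153556, outside the printed promoter, had 37 of 38 methylated reads against 8 of 9. Without it the levels were 21.3% and 8.93% with 18 of 20 CpGs higher. Neighbouring CpGs can share reads, so the 18 are not separate observations. In chr4:8781001-8782000 the level was 48.8% of 41 against 3.17% of 63 reads (adjusted p = 0.102, Fisher's exact test), and the HSPC libraries, at 29.03% and 46.7%, had the opposite order.

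On the lower side, chr12:25952001-25953000 had 47.4% of 19 against 100% of 37 reads (adjusted p = 0.0591, Fisher's exact test). The difference lay in the CpG at 25952696, with 2 of 12 methylated reads against 1 of 1. The other CpGs were fully methylated in both libraries, so that without the CpG at 25952696 the difference was 0. In HSPCs this tile had 33.3% of 15 reads in Sca1-BCL6Δ and 75.0% of 24 in wild-type. The tile chr14:93160001-93161000 held 1 CpG, methylated in 6 of 15 against 31 of 31 reads, and in 5 of 8 and 15 of 22 reads in HSPCs. In chr6:77713001-77714000 the CpG at 77713502 had 3 of 16 against 14 of 14 methylated reads, and the CpG 4 bp after it 15 of 16 against 13 of 14. The pooled level of this tile was 56.25% of 32 against 96.4% of 28 reads. In HSPCs the order was the opposite, with 87.5% of 8 reads in Sca1-BCL6Δ and 59.1% of 22 in wild-type.

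**Figure D5:**
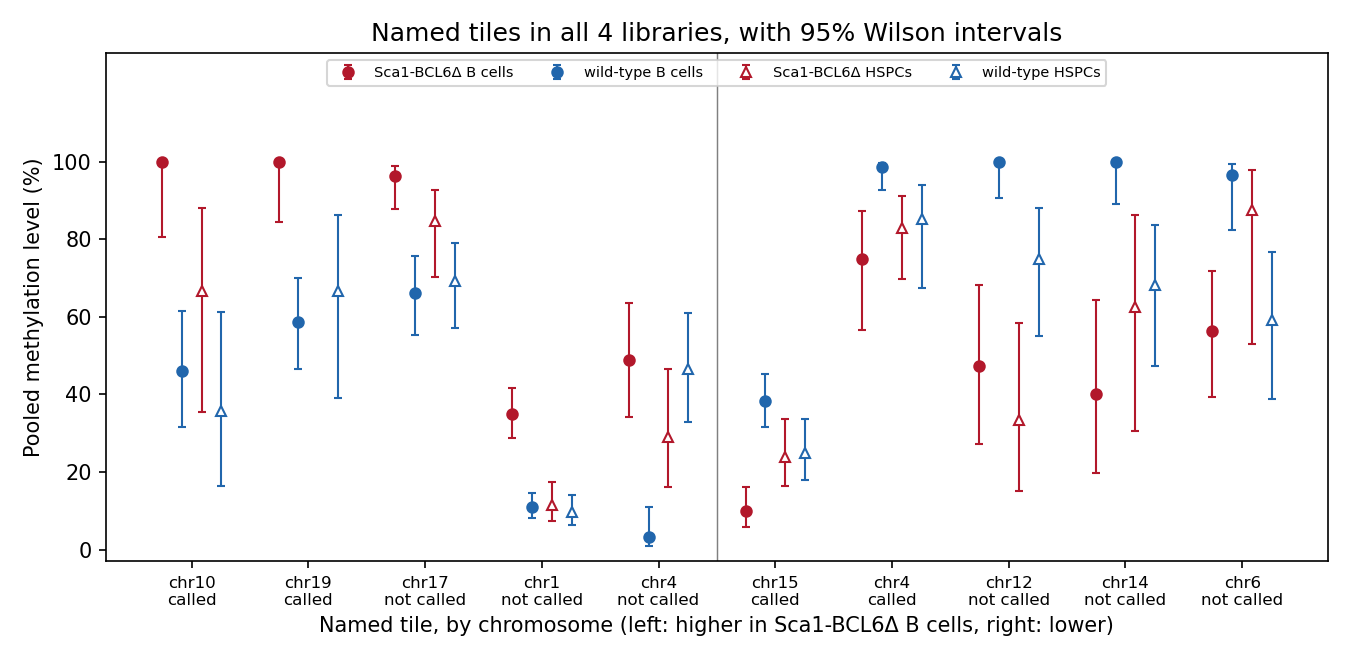
Pooled methylation level (%, with 95% Wilson intervals) of the 10 named tiles in Sca1-BCL6Δ (red) and wild-type (blue) B cells (filled circles) and HSPCs (open triangles), a library with no read being left out. The B cell intervals of both genotypes do not overlap in any of the 10 tiles, which were chosen for that difference. The HSPC intervals of the genotypes overlap in every tile with reads in both HSPC libraries. Intervals take each summed read as separate and are too narrow where reads were shared.

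A RefSeq promoter was placed in 6371 of the tiles. Their mean level was 10.1% in Sca1-BCL6Δ against 10.8% in wild-type B cells, with a mean difference of -0.68 (SE 0.099 over 18 autosomes) and a median of -0.86. The other 130249 tiles had 76.4% and 76.5%, with a mean of -0.14 (SE 0.040). Promoter tiles are dense and deep, with a median of 20 CpGs and 155 Sca1-BCL6Δ reads against 3 and 19 in the others, and placed promoters are those with enough covered CpGs to match. No promoter tile was called by Fisher's exact test, and 395 (6.20%) had an unadjusted p under 0.05 against 2.63% of the others. At least 20 points were reached in 105 promoter tiles, 62 higher (0.973%) and 43 lower (0.675%), where the other tiles had 2.97% and 3.56%, and 74 of the 105 also reached it with CpGs weighted equally.

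The genes below have the smallest p among promoter tiles and were chosen after their values were seen. Gpr63 had the only promoter tile with an adjusted p under 0.05, chr4:24893001-24894000, at 2.97% of 337 reads in Sca1-BCL6Δ against 15.8% of 405 reads in wild-type B cells (adjusted p = 0.0415, Fisher's exact test). Its difference of -12.8 points was under the 20 that a call needs, and it was -8.15 with each CpG weighted equally. The CpG at 24893042, with 1 of 2 methylated reads against 25 of 33, held much of it, and without it the levels were 2.69% of 335 and 10.5% of 372 reads, a difference of -7.80 points. The HSPC levels were 13.2% and 11.1%. The CpGs marked in the printed promoter take little part in it, as given above. CpGs after the printed window, from 24893694 to 24893716, were methylated in 0 of 12 Sca1-BCL6Δ reads each, against 2 of 9, 2 of 9, 2 of 8 and 3 of 10 in wild-type.

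For Hes7 the difference changed with the weight of each CpG. Its tile chr11:68933001-68934000 had 12.3% of 81 reads in Sca1-BCL6Δ against 47.6% of 124 reads in wild-type B cells (adjusted p = 0.0741, Fisher's exact test). Upstream of the printed promoter, 4 CpGs had 1 read each in Sca1-BCL6Δ, all methylated, and 9 to 23 reads in wild-type, 66.7% to 100% methylated. With CpGs weighted equally the difference was 2.95 points. Nob1, a factor of ribosomal RNA maturation, showed the same in a deep tile, with 7.56% of 119 reads against 46.6% of 161 and a difference of -0.83 with CpGs weighted equally. Over all tiles, 8612 differed by at least 20 points when pooled and 10090 with CpGs weighted equally. Of these, 6157 did so in the same direction both ways, 71.5% of the pooled and 61.0% of the equally weighted, and 8 in opposite directions.

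Gm13205 kept its difference under both weightings. Its tile chr4:148326001-148327000 had 19.9% of 206 reads in Sca1-BCL6Δ against 58.6% of 495 reads in wild-type B cells (adjusted p = 0.107, Fisher's exact test), and -44.0 points over 38 CpGs weighted equally. The HSPC libraries had the opposite order, 88.0% of 150 reads in Sca1-BCL6Δ and 41.4% of 263 in wild-type. Other promoter tiles of small p and lower level in Sca1-BCL6Δ were those of Ttc9 (3.03% against 14.9%), Ankrd12 (4.23% against 13.6%), Oscp1 (8.05% against 14.4%) and Parvb (1.32% against 18.0%), which encodes the focal adhesion protein beta-parvin. That of Grb10, an adaptor of insulin signalling, had 7.27% against 9.43% pooled and 5.70 points in the other direction with CpGs weighted equally.

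On the higher side after Iars2 came Grin2c, an NMDA receptor subunit, with 24.2% against 7.17%, and P4ha1, a subunit of collagen prolyl 4-hydroxylase, with 25.6% against 6.16%. Gm46552 had 24.4% against 9.85%, Lhx3, a LIM homeobox factor of pituitary and motor neurons, 26.98% against 7.25%, and Tbrg4 18.2% against 6.54%. Trp53inp2, an autophagy factor, had 13.03% against 5.02%, and Clcn4, a chloride and proton exchanger, 27.5% against 8.33%. None passed the test, the smallest adjusted p after Iars2 being 0.253 for Grin2c (Fisher's exact test). With CpGs weighted equally these differences kept their direction. That of Lhx3, with 63 Sca1-BCL6Δ reads, went from 19.7 to 8.63 points and that of Gm46552 from 14.5 to 7.20. That of Tbrg4 went from 11.6 to 15.2. Among the deeper promoter tiles, that of Ocln, a tight junction protein, had 33.6% of 110 reads against 8.96% of 279, and that of Clcn3 31.4% of 172 against 7.69% of 299, both with differences over 20 points under either weighting.

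Gene groups were then read at their placed promoters, with 0 tiles called in any list, where 0.00293% of all tiles and no promoter tile were called and 6.20% of promoter tiles had an unadjusted p under 0.05. Of 20 genes described as BCL6 targets, 5 had a kept promoter tile, all under 20% methylated, with a median difference of -2.98. All unmethylated promoter tiles had a median of -0.90, but they were deeper. Their median was 164 Sca1-BCL6Δ reads, against 52 (Irf4) to 106 (Bcl2) in the 5 tiles. Unmethylated tiles with 50 to 99 reads in the shallower library had a median difference of -1.68. The other unmethylated lists, given below, had medians of -0.69, -2.20 and -2.07. Bcl2, the anti-apoptotic gene, had 1.89% of 106 reads against 8.61% of 360. Irf4, a plasma cell factor, had 0 of 52 reads summed over 6 CpGs, against 17.02% of 47. The 0 allows a level of up to 5.77% if each summed read were separate, and more where 1 read covers several CpGs. The other members were Cdkn1a (1.67% against 4.65%), Cdkn1b (8.51% against 7.14%) and Tnfaip3, an inhibitor of NF-kappaB signalling (8.33% against 1.39%). None of the 5 had an unadjusted p under 0.05 by Fisher's exact test.

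Of 20 lymphoma genes, 8 had a kept promoter tile, all under 20%, with a median difference of -0.69 and a range of -8.14 for Kmt2d, a histone methyltransferase, to 6.16 for Cdkn2a, the tumour suppressor locus, at 15.7% of 172 against 9.54% of 325 reads. Of 20 genes of other blood lineages, 4 were measured (Bcl11b, Cebpa, Gata3 and Tcf7) and all were under 20%, with a median of -2.20. Of 12 genes of the methylation machinery, 8 were measured and all were under 20%, with a median of -2.07. Of these, 1 of 8 had an unadjusted p under 0.05, Dnmt3a, a de novo methyltransferase, with 2.58% of 697 reads against 7.23% of 788, and its adjusted p was 1 by Fisher's exact test.

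Germline promoters gave the methylated counterpart, in a list added after values were seen. Of 20 genes, 12 had a kept promoter tile and 11 were over 80% methylated, with median levels of 94.5% and 94.7% and a median difference of -0.10. Ddx4 had 97.8% of 138 reads in Sca1-BCL6Δ against 95.2% of 165 reads in wild-type B cells over its tile, chr13:113442001-113443000. Sycp1, of the synaptonemal complex, had 98.1% of 108 and 97.6% of 127 reads, and Mael, of the piRNA pathway, 94.7% of 152 and 97.9% of 242 reads. Hormad2, of meiotic chromosome axes, was intermediate at 76.9% of 52 and 67.1% of 82 reads. The differences ran from -9.04 for Tex101 to 9.85 for Hormad2, and none had an unadjusted p under 0.05 by Fisher's exact test.

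Processed by the same rule, the HSPC libraries differed more from each other than the B cell libraries did. In 101610 HSPC tiles the mean difference was 8.94 points with an SD of 16.9, 27.4% of tiles differed by at least 20 points, and 12 were called higher and 4 lower (0.0157%). Each HSPC group was again 1 library, so the difference between the cell types was not tested. In the 92409 tiles kept in both comparisons the mean HSPC difference was 8.56. It was 8.72 in the 2102 tiles that were at least 20 points higher in Sca1-BCL6Δ B cells and 5.37 in the 2540 that were at least 20 points lower.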

How the data were processed

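RRBS libraries of 4 groups were analysed. Per the labels, MspI and TaqI cut the DNA, fragments between 40 and 350 bp were kept and amplified for 18 PCR cycles, and the build was mm9. Per the deposited methods text, the authors aligned reads with a proprietary pipeline (version not given) to 36-bp fragment ends, and no removal of PCR duplicates is recorded. The deposited CpG tables give a count of methylated and of total reads as a pair, and a score, which per the file headers is the mean methylation. Deposited read tables give a percent methylation and a count of CpGs per read, and served only for named tiles.

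Tiles were summed and tested in Python 3.11.15 with SciPy 1.17.1 as stated in the text. Counting error is that of a binomial with the pooled level. Named tiles were all called tiles, filled to 5 in each direction with those of smallest p that differed by at least 20 points, and called windows were the 4 with a called tile. The test was tried on simulated reads. Tiles and gene lists were chosen with earlier results of these data known. RefSeq promoters (GRCm38.p6, 300 bases) were placed on mm9 by CpG spacing alone: all covered CpGs of the window, at least 6, had to be CpGs of the promoter, at 1 place and in gene order, or between placed neighbours. This placed 7937 promoters of 7078 genes, on 18 of the 19 autosomes. Of mirrored sequences, which have no true place, 180 were kept in order beside 6886 unmirrored ones and 7 between neighbours beside 1065. Placements in numbers of that order may therefore be wrong. An annotation of exons and introns on mm9 was not used here. Alternatives changed the read limits, the CpGs used, their weight, the coverage, the test and the source of each class.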

Additional observations from a re-analysis of the deposited data

How the results depend on the processing

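The mean tile difference was -0.318 with at least 20 summed reads and -0.26 with at least 3 shared CpGs in a tile (an alternative chosen after seeing the data). It was -0.024 with each CpG weighted equally, smaller in size than the counting error of the pooled mean, 0.042. Calls higher and lower in Sca1-BCL6Δ, 2 and 2 as reported, were 5 and 11 with no upper limit on reads, 230 and 253 with all CpGs tested and 0 and 0 at equal coverage. Calls lower were 6 with at least 20 summed reads, 4 with CpGs covered in either library, 1 with CpGs weighted equally and 0 at 30 points, and calls higher were 1 with at least 3 shared CpGs. Tiles past the size limit, higher and lower, were 1148 and 1325 with at least 20 summed reads, 2109 and 2592 with at least 3 shared CpGs, and 1124 and 1421 at 30 points, where fewer tiles or a higher limit apply by construction. By density, tiles of 20 or more CpGs had -0.76 with CpGs of either library, -0.17 weighted equally, -0.36 at equal coverage and -0.61 with density counted in both B cell libraries. Tiles of 5 to 19 CpGs had -0.27 weighted equally. Tiles of 1 to 4 CpGs turned from 0.07 to -0.0012 with density counted in both B cell libraries.

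For level classes under 20%, 20 to 80% and over 80%, the differences were -1.23, -1 and 0.40 with at least 20 summed reads, -1.81, -1.79 and 0.60 with CpGs of either library, -1.06, -0.89 and 0.31 at equal coverage, -1.03, -0.99 and 0.30 with classes from the Sca1-BCL6Δ HSPC library, and -0.73, -0.91 and 0.22 with both of the last changes together, which was chosen after seeing the data. The intermediate and methylated classes had -1.08 and 0.64 weighted equally, and the unmethylated class -1.51 with at least 3 shared CpGs. Classes from the wild-type B cell library turned all 3 signs, to 0.52, 0.97 and -0.64. The mean of chromosome 1 turned from -0.19 to 0.048 with CpGs weighted equally, and no other autosome mean beyond its counting error turned. The cause of the moves without a stated construction was not tested. No paired analysis was possible because each group has 1 library, and for the same reason no replicate could be left out. Leaving out the CpG that moves a tile most, an alternative added after seeing the data, turned the tile on chromosome 4 at 3413001 to 1.82 points and gave 0 for the one on chromosome 12. The Hes7 tile turned from -35.2 to 2.95 with CpGs weighted equally. Smaller differences of promoter tiles turned too with CpGs weighted equally, as for Grb10 (from -2.16 to 5.70) and Tcf7 (from 0.63 to -0.41). Among the called tiles and the tiles of smallest p added to them, only the one at 3413001 changed direction in any alternative that kept it. Depth is a limit of the called tiles: their 3 single CpGs had 7 or 8 reads in Sca1-BCL6Δ.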
